A study of Homo sapiens with 6 samples.

Results

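The 9 genes described here code for the enzymes that make and break down prostaglandin E2 and for receptors through which it acts. They are PLA2G4A, PTGS1, PTGS2, PTGES, PTGES2, PTGES3, PTGER2, PTGER4 and HPGD, which were found by symbol among the 74852 genes of the deposited expression table, with 1 entry for each. The cells were MDA-MB-231, a human cell line of triple-negative breast cancer (TNBC) with a mesenchymal phenotype, and the study asked how its transcriptome responds when the mitotic kinase NEK2 is silenced. In the si-NEK2 group the cells received a pool of siRNAs targeting NEK2 and in the si-CTRL group a pool of control siRNAs. According to the sample records, both groups were transfected 2 times with a lipofection reagent and collected 24 h after the second transfection, whereas the methods of the study state another interval. PolyA-enriched RNA was sequenced in 3 libraries per group. Each group is 1 siRNA pool in 1 cell line, and the sample records do not say whether the libraries of a group came from separate cultures or whether both groups were prepared in 1 batch, so that p-values measure the spread between these libraries only, and batch and group cannot be told apart.

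Prostaglandin E2 is a lipid mediator of inflammation that many carcinomas produce. Cytosolic phospholipase A2 releases arachidonic acid from membrane phospholipids, the cyclooxygenases PTGS1 and PTGS2 convert it to prostaglandin H2, and prostaglandin E synthases turn prostaglandin H2 into prostaglandin E2. The product leaves the cell and binds receptors such as EP2 and EP4, which raise cyclic AMP, until it is taken up again and oxidised by the dehydrogenase HPGD.

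Promoters of 4 of the 9 genes are shown first, those of the 3 genes that passed the test between the groups and that of PTGS2, the inducible cyclooxygenase, for comparison. The sequences are from RefSeq (GRCh38.p14), in which all 9 genes were matched to 13 promoters, and each covers 250 bases before to 50 bases after an annotated start, 5′ to 3′ on the strand of the gene. Capitals mark letters that matched, on either strand, a TATA box (TATAAA), a GC box (GGGCGG), an E-box (CACGTG), the core of a cyclic AMP response element (TGACG), an AP-1 site (TGANTCA), the NF-kB consensus or a C/EBP site (TTGCNNAAT).
PLA2G4A promoter, chr1:186828699-186828998, plus strand: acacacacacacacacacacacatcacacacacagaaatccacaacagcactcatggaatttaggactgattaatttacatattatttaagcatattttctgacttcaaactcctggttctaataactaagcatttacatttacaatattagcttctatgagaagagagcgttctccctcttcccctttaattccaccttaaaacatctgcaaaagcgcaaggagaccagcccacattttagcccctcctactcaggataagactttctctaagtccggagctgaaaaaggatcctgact
PTGS2 promoter, chr1:186680374-186680673, minus strand: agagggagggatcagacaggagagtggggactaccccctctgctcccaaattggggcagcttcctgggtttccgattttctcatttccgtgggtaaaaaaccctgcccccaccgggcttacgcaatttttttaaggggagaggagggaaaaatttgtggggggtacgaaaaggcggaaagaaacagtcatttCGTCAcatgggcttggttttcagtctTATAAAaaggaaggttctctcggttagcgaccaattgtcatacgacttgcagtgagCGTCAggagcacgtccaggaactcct
PTGES promoter, chr9:129752993-129753292, minus strand: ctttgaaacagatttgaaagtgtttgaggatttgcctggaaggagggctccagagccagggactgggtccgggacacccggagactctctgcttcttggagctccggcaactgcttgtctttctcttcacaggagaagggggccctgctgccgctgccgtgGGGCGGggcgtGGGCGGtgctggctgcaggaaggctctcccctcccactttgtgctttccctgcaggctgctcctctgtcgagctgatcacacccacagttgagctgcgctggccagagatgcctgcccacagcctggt
HPGD promoter, chr4:174522439-174522738, minus strand: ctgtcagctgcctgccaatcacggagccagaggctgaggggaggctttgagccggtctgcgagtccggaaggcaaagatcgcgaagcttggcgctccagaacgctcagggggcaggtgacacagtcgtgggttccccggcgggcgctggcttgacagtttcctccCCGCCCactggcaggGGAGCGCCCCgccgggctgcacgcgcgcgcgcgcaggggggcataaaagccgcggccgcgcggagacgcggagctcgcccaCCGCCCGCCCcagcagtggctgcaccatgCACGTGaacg
The PTGS2 promoter held a TATA box from position -32 to -27, counted from the start as position 1, and a cyclic AMP core on the opposite strand at -58 to -54 and again at 25 to 29. The PTGES promoter held neither of these and had 2 GC boxes, at -89 to -84 and at -78 to -73. The HPGD promoter held 3 GC boxes, of which those at 12 to 17 and 16 to 21 overlap, an E-box at 41 to 46 and an NF-kB match at -70 to -61. No searched letters were found in the PLA2G4A window, which was also the poorest in G and C of the 4, at 39.7% against 50.7% for PTGS2, 61.7% for PTGES, 71% for HPGD and a median of 58.7% over all promoters. Among the 35116 promoters of the reference, 11.5% held the TATA box letters, 45% the GC box, 7.26% the E-box, 24.6% the cyclic AMP core, 7.71% the AP-1 site, 11.3% the NF-kB consensus and 2.66% the C/EBP site. A match is a description of these letters and not evidence of a bound factor. RefSeq gives HPGD another start further upstream, and the libraries were not used to tell which start was in use.

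The libraries were deep, with 52625492 to 87454509 reads assigned to genes. The deposited unit is a normalized count, that is the reads on a gene divided by the size factor of the library, and 1 read was worth 0.818 to 1.25 of it. A gene was tested if its mean over the 6 libraries was at least 10 normalized counts, and it was called regulated where its p-value did not exceed 0.05 and its fold change reached 1.5, both from limma on log2(value + 1). Of 18717 genes tested, 4213 (22.5%) were called, 1541 higher (8.23%) and 2672 lower (14.3%) in si-NEK2, and the groups did not overlap for 10298 (55%). NEK2 itself had a mean of 3438 normalized counts in si-CTRL and 344.9 in si-NEK2. The library of si-CTRL replicate 1 was the shallowest and stood apart from the other 5 on the second principal component (16.2% of the variance), and values without it are given below. Markers of the mesenchymal line were present at high levels, with VIM at 157264 normalized counts in si-CTRL and 138731 in si-NEK2. The epithelial genes CDH1 and EPCAM and the receptor genes ESR1 and PGR averaged under 10 in both groups. ERBB2, the receptor gene HER2, was well above that, at 2822 in si-CTRL and 4020 in si-NEK2 (log2 fold change 0.53, not called). Of the mesenchymal markers CD44, ZEB1 and CDH11 were lower in si-NEK2, by 0.76, 0.82 and 1.22 on the log2 scale, and VIM and AXL were not called. PTPRC, PECAM1, CD3E and LYZ, markers of leukocytes and endothelium, averaged at most 13.7 normalized counts. In bulk RNA a smaller share of cells that express a gene and less RNA per cell cannot be told apart.

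Of the 9 genes, 8 reached the level for testing and 3 were called regulated in si-NEK2. HPGD and PTGES rose, PLA2G4A fell, and PTGS2, PTGES2, PTGES3, PTGER2 and PTGER4 were not called. The 3 called genes are 37.5% of the 8 tested, beside 22.5% of all genes, the 2 higher ones 25% beside 8.23%, and the 1 lower one 12.5% beside 14.3%. The groups did not overlap for 5 of the 8, PLA2G4A, PTGES, PTGES2, PTGER2 and HPGD, or 62.5% beside 55% of all genes. The median log2 fold change of the 8 genes was 0.05 and that of all genes tested was 0.01.

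**Figure D1:**
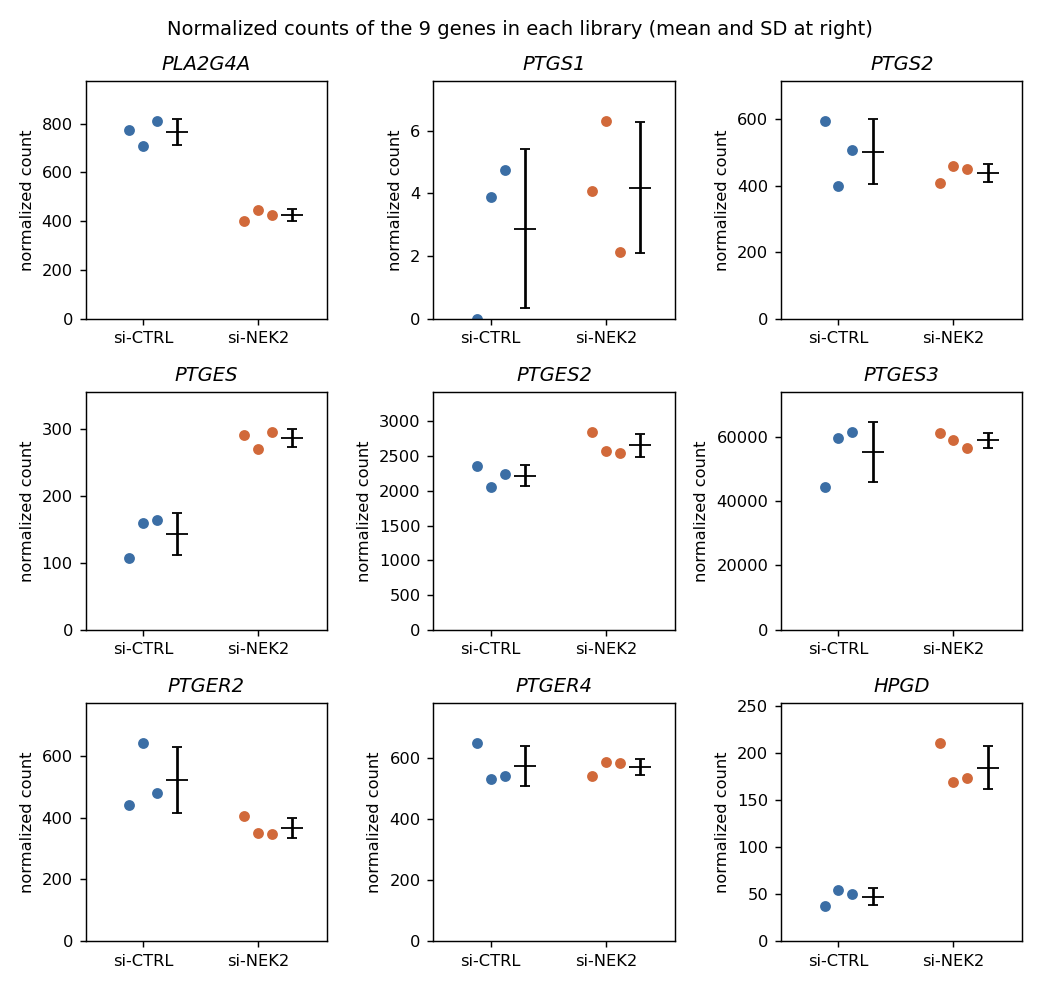
Normalized counts of the 9 genes in each of the 3 si-CTRL (blue) and 3 si-NEK2 (orange) libraries, replicates 1 to 3 from left to right, with 1 panel per gene, a linear axis from 0, and the mean and SD of the group beside the points. The si-NEK2 points of HPGD, PTGES and PTGES2 lie above all si-CTRL points and those of PLA2G4A and PTGER2 lie below them. The points of PTGS2, PTGES3 and PTGER4 overlap.

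PLA2G4A fell in si-NEK2. This gene (GSHG0001281, chr1:186798032-186958113 in hg19), the cytosolic phospholipase A2 that releases arachidonic acid, had 774, 706 and 812 normalized counts in the libraries of si-CTRL (replicates 1, 2 and 3, the order kept for each gene) and 400, 446 and 427 in those of si-NEK2. All 3 si-NEK2 libraries lay below all si-CTRL libraries, with a narrow spread inside each group. The mean fell from 764 ± 53.6 to 424 ± 23.2 (SD, n = 3 each), so that 55.6% of the control level remained. The log2 fold change was -0.85 (SE, the standard error, 0.10, limma Benjamini-Hochberg adjusted p = 0.00021). It kept its direction and its call in 18 of 18 alternative settings that kept the 1.5-fold threshold, between -0.97 and -0.74. It was -0.83 without si-CTRL replicate 1. With a fold change of at least 2 required, PLA2G4A was no longer called. The 95% interval of the fold, from 0.479 to 0.647, lies wholly below a level 1.5 times lower than control. Among all genes tested, 9.31% had a log2 fold change as low or lower.

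At the cyclooxygenase step PTGS2 was the gene with a testable level, and it was not called. PTGS1 (GSHG0030423, chr9:125132809-125157982), the constitutive cyclooxygenase, had 0, 4 and 5 reads in the si-CTRL libraries and 5, 7 and 2 in the si-NEK2 libraries, or 0 to 6.33 normalized counts, and was too low to be tested. PTGS2 (GSHG0002812, chr1:186640945-186649559), the inducible enzyme also known as COX-2, had 595, 400 and 508 normalized counts in si-CTRL and 408, 457 and 450 in si-NEK2. Its groups overlapped, since the lowest PTGS2 value of all 6 libraries was that of si-CTRL replicate 2, and the 3 si-NEK2 values fell inside the range of the controls. The means were 501 ± 97.6 and 438 ± 26.9 (SD, n = 3 each), with a log2 fold change of -0.17 (SE 0.15, limma Benjamini-Hochberg adjusted p = 0.365). The 95% interval of the fold ran from 0.705 to 1.11, so that a decrease by the 1.5-fold threshold was outside it, while a smaller decrease or a small increase was not. The spread lay mostly among the control libraries, and the log2 fold change was -0.04 without replicate 1 of si-CTRL and -0.33 without replicate 2.

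PTGS2 mRNA is known as a short-lived transcript that carries AU-rich elements, in which the pentamer ATTTA recurs. In the GENCODE 29 annotation (GRCh38) its longest 3′ UTR of 2562 bases held 22 pentamers, more than in 97.8% of 19224 genes with a 3′ UTR of at least 30 bases and more than in 99.9% of the 2596 genes with a 3′ UTR within a factor of 1.25 of its length. The first 30 bases after the stop codon, in exon 10 of 10, held 3 overlapping pentamers, and are shown because no other 30 bases of the UTRs of the 9 genes held more, with the pentamers in capitals.
PTGS2 3′ UTR start, chr1:186674323-186674352, minus strand: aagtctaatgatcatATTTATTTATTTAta
The pentamer counts of the other genes are given as a description beside their changes. PLA2G4A, which fell, had 4 in a short 3′ UTR of 473 bases, a density of 8.46 per kilobase close to the 8.59 of PTGS2, which was not called. HPGD, which rose 1.95 on the log2 scale, had 5 in 1907 bases. PTGES, which also rose, had 1 in 1280 bases, and PTGES2 had none in 452 bases. PTGER4 had 9, PTGES3 had 6, PTGER2 had 5 and PTGS1 had 3. The median over all genes was 2 pentamers, or 1.48 per kilobase.

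**Figure D2:**
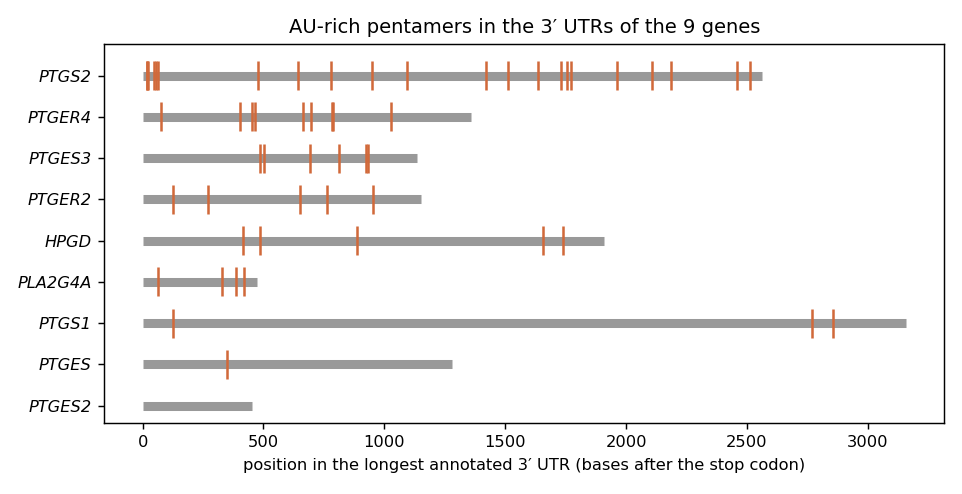
Position of each ATTTA pentamer (orange tick) along the longest annotated 3′ UTR of the 9 genes (grey bar), in bases after the stop codon. PTGS2 has 22 ticks spread over 2562 bases, with a group of them just after the stop codon, while PTGES has 1 and PTGES2 has none.

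The 3 prostaglandin E synthases differed in level and in change. PTGES (GSHG0031205, chr9:132500610-132515344), the inducible microsomal synthase that is usually coupled to PTGS2, had 107, 159 and 164 normalized counts in si-CTRL and 291, 270 and 296 in si-NEK2. Every si-NEK2 library was above every si-CTRL library, and the value of si-CTRL replicate 1 was the lowest of all. The mean rose 1.99-fold from 143 ± 31.1 to 286 ± 13.6 (SD, n = 3 each), with a log2 fold change of 1.01 (SE 0.17, limma Benjamini-Hochberg adjusted p = 0.00165) and a 95% interval of the fold from 1.54 to 2.65. PTGES was called in 18 of 18 alternatives, at a log2 fold change between 0.82 and 1.2, the lowest being that without si-CTRL replicate 1. Of all genes tested, 2.34% had a log2 fold change as high or higher.

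PTGES2 (GSHG0031185, chr9:130882973-130890741), a membrane-associated synthase, had 2356, 2061 and 2242 normalized counts in si-CTRL and 2852, 2579 and 2551 in si-NEK2. The groups did not overlap, but the lowest si-NEK2 value was close above the highest control. The means were 2220 ± 149 and 2661 ± 166 (SD, n = 3 each), and the log2 fold change of 0.26 (SE 0.08, limma Benjamini-Hochberg adjusted p = 0.0278) was under the fold threshold, with a 95% interval of the fold from 1.06 to 1.36. With the libraries scaled to equal totals it was 0.13 with an adjusted p of 0.208 from limma. PTGES3 (GSHG0007557, chr12:57057127-57082192), the cytosolic synthase that is also the HSP90 co-chaperone p23, had 44435, 59781 and 61579 normalized counts in si-CTRL and 61273, 59093 and 56522 in si-NEK2. The control libraries overlapped the si-NEK2 libraries on both sides, with si-CTRL replicate 1 lowest. The log2 fold change was 0.11 (SE 0.12, limma Benjamini-Hochberg adjusted p = 0.497), the 95% interval of the fold ran from 0.895 to 1.30, and the sign turned without si-CTRL replicate 1 (-0.04) and with equal total or quantile scaling. The 3 small genes without a symbol that overlap PTGES3 in the annotation averaged at most 3 normalized counts.

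The receptor genes did not pass both thresholds. PTGER2 (GSHG0008837, chr14:52781016-52795304), which codes for the Gs-coupled receptor EP2, had 440, 642 and 480 normalized counts in si-CTRL and 405, 352 and 346 in si-NEK2. The groups did not overlap, and si-CTRL replicate 2 was far above the other controls. The means were 521 ± 107 and 367 ± 32.7 (SD, n = 3 each), 70.6% of the control level, with a log2 fold change of -0.49 (SE 0.15, limma Benjamini-Hochberg adjusted p = 0.0276) and a 95% interval of the fold from 0.564 to 0.903. The fold was short of the threshold of 1.5. PTGER2 was called with equal total scaling (-0.61) and without si-CTRL replicate 1 (-0.60), while without si-CTRL replicate 2 the log2 fold change was -0.33. PTGER4 (GSHG0023892, chr5:40680032-40693835), which codes for the other Gs-coupled receptor, EP4, had 649, 529 and 541 normalized counts in si-CTRL and 539, 587 and 584 in si-NEK2. The 2 groups lay across the same range, with a log2 fold change of -0.0025 (SE 0.11, limma Benjamini-Hochberg adjusted p = 0.987). Its sign was not stable, and the 95% interval of the fold, from 0.845 to 1.18, held no change of 1.5-fold in either direction. The receptor that couples to Gq, PTGER1, averaged 3.70 normalized counts in si-CTRL and 2.76 in si-NEK2 and was not tested, and PTGER3, which couples mainly to Gi, was listed at 0 in all 6 libraries.

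Of the 8 tested genes that of the breakdown step had the largest change. HPGD (GSHG0023659, chr4:175411328-175444049), the 15-hydroxyprostaglandin dehydrogenase that inactivates prostaglandin E2, had 37.5, 54.2 and 49.4 normalized counts in si-CTRL and 210, 169 and 173 in si-NEK2, from 30, 56 and 52 reads and 257, 187 and 162 reads. The lowest si-NEK2 library was over 3 times the highest control. The mean rose 3.91-fold from 47.1 ± 8.62 to 184 ± 22.8 (SD, n = 3 each), with a log2 fold change of 1.95 (SE 0.19, limma Benjamini-Hochberg adjusted p = 9.13e-05) and a 95% interval of the fold from 2.89 to 5.2. HPGD was called in 18 of 18 alternatives, between 1.80 without si-CTRL replicate 1 and 2.11 with quantile scaling, and 0.411% of all genes tested had a log2 fold change as high or higher. The 1 gene without a symbol that overlaps HPGD averaged 0.409 normalized counts.

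**Figure D3:**
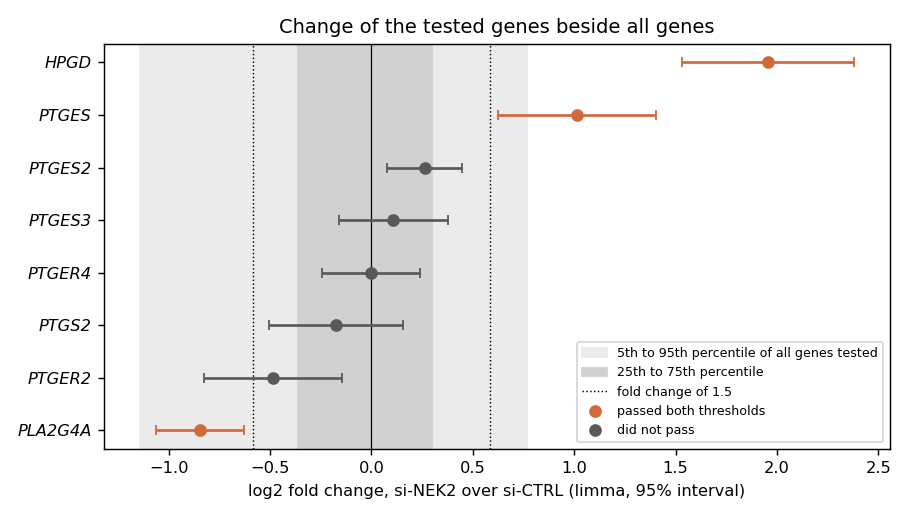
Log2 fold change of si-NEK2 over si-CTRL for the 8 tested genes (points) with 95% intervals from limma (bars), over grey bands for the 5th to 95th and the 25th to 75th percentiles of all 18717 genes tested and dotted lines at a fold change of 1.5. HPGD and PTGES lie to the right of the outer band and PLA2G4A lies left of the dotted line, while PTGER4, at the solid line of no change, has an interval inside the dotted lines.

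Levels between genes were compared per kilobase of exon (GENCODE 29), as the mean normalized count of a group divided by the exon length. In si-CTRL the order was PTGES3 (26608 normalized counts per kilobase), PTGES2 (916), PLA2G4A (266), PTGER2 (211), PTGER4 (149), PTGS2 (111), PTGES (80.8), HPGD (10.2) and PTGS1 (0.506). The libraries of PLA2G4A and PTGER2 overlapped in this order, as did those of PTGS2 and PTGES. In si-NEK2 the 3 receptor and synthase genes PTGES (161), PTGER2 (149) and PTGER4 (148) and the phospholipase PLA2G4A (148) stood side by side, each overlapping its neighbour, above PTGS2 (97.1), HPGD (39.7) and PTGS1 (0.736). PTGES3 (28388) and PTGES2 (1098) remained the highest 2. PTGES thus stood below PTGS2 in the control order and above it in the si-NEK2 order.

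**Figure D4:**
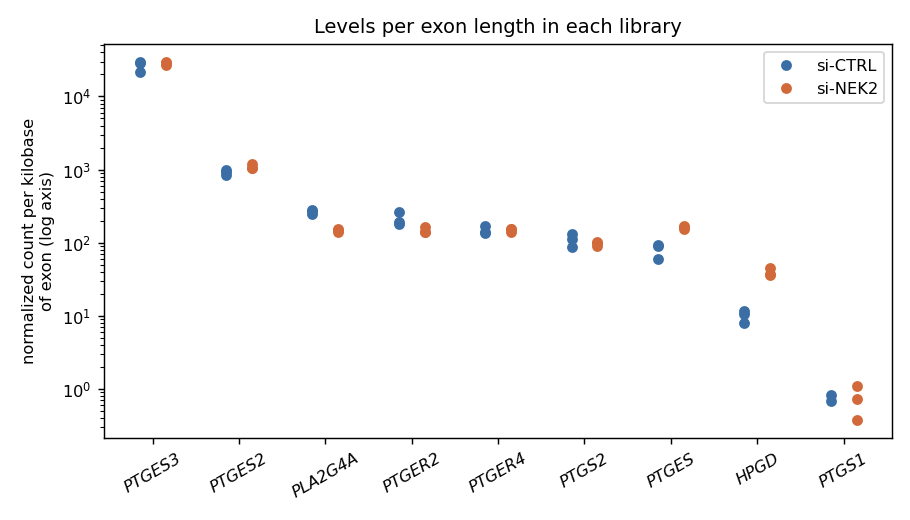
Normalized counts per kilobase of exon of the 9 genes in each si-CTRL (blue) and si-NEK2 (orange) library, on a log axis, ordered by the si-CTRL mean. PTGES3 lies highest in all 6 libraries and PTGS1 near or under 1, where the si-CTRL replicate 1 value of 0 cannot be drawn. The blue and orange points of PLA2G4A, PTGES and HPGD are separate, as are those of PTGES2 and PTGER2, which were not called.

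The mRNA levels of different steps were also set side by side as ratios of levels per kilobase within a library, which do not change when a library is rescaled by a single factor. These 6 ratios were chosen after the values of the genes were seen and are a description, since with 3 libraries against 3 the exact permutation test cannot give a p below 0.1. The ratio of PTGES to PTGS2 was 0.460, 1.01 and 0.820 in si-CTRL and 1.82, 1.5 and 1.67 in si-NEK2. The ratio of PTGES to PTGES2 was 0.0623, 0.105 and 0.0997 in si-CTRL and 0.140, 0.143 and 0.158 in si-NEK2. Neither of these mRNA ratios overlapped between the groups, which restates the rise of PTGES beside genes that were not called. The ratio of HPGD to PTGES was 0.134, 0.131 and 0.116 in si-CTRL and 0.276, 0.239 and 0.224 in si-NEK2, and that of HPGD to PTGS2 was 0.0614, 0.132 and 0.0948 against 0.503, 0.360 and 0.374. The groups did not overlap in either ratio of HPGD mRNA. The ratio of PLA2G4A to PTGS2 was 2.04, 2.77 and 2.51 in si-CTRL and 1.54, 1.53 and 1.49 in si-NEK2, lower without overlap. These 5 ratios each had a two-sided p of 0.1 in the exact permutation test, the smallest it can give, and 0.12 after Benjamini-Hochberg adjustment over 6 ratios. The ratio of PTGER2 to PTGER4 was 1.06, 1.89 and 1.38 in si-CTRL and 1.17, 0.933 and 0.922 in si-NEK2, and the groups overlapped (p = 0.2 in the exact permutation test, two-sided, and 0.2 after adjustment).

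The other genes of the pathway were taken from 10 lists, with 143 genes tested of 181 in the table. Of the 143, 16 were higher and 28 lower in si-NEK2, 30.8% beside 22.5% of all genes, with a median log2 fold change of -0.11 beside 0.01. Among genes for the release and re-esterification of arachidonic acid, 23 of 32 were tested and 7 rose and 4 fell (47.8% called), with a median of 0.10. MGLL, the monoacylglycerol lipase, fell from 1939 to 836 normalized counts (log2 fold change -1.21), the secreted phospholipase PLA2G12A from 1691 to 735 (-1.20) and the acyltransferase MBOAT2 from 2110 to 1087 (-0.96). ACSL3, which activates fatty acids, rose from 3848 to 6728 (0.81). PLA2G4C, a relative of PLA2G4A, had means of 418 and 340 and was not called (-0.30). The list thus held changes in both directions, and its median crossed 0 over the alternatives, from -0.03 to 0.14.

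Of the other prostanoid synthases 7 of 11 were tested, with 1 higher, 1 lower and a median of -0.15. The share called was 28.6%, beside 22.5% of all genes. AKR1B1, an aldo-keto reductase that can make prostaglandin F2 alpha, rose from 25225 to 56895 normalized counts (log2 fold change 1.18), and TBXAS1, the thromboxane synthase, fell from 77.5 to 39.7 (-1.02). AKR1C3, another prostaglandin F synthase, had means of 583 and 455 (-0.36) and was not called. Without a filter on low values 3 genes of this list were higher and 1 lower. Of the list for prostaglandin transport and breakdown, which leaves out HPGD, 8 of 8 genes were tested and 3 fell, with none higher. This is 37.5% called beside 22.5% of all genes, with a median of -0.30. SLCO2A1, the carrier that takes prostaglandins back into the cell ahead of HPGD, had 70.0, 83.3 and 58.9 normalized counts in si-CTRL and 22.1, 21.7 and 26.7 in si-NEK2, a log2 fold change of -1.54 (SE 0.22, limma Benjamini-Hochberg adjusted p = 0.000698). The carrier and the enzyme that act one after the other in prostaglandin uptake and inactivation thus changed in opposite directions. SLCO2B1 fell from 19.2 to 6.89 (-1.36) and CBR4, a carbonyl reductase, from 2985 to 1561 (-0.93). Whether CBR4 takes part in prostaglandin breakdown was not tested. The prostaglandin reductase genes PTGR1 (0.11) and ZADH2 (-0.34) were not called, nor was the entry that PTGR2 shares with ZNF410 (0.51). ABCC4, an exporter of prostaglandin E2, had means of 983 and 1033 (0.07) and was not called. With a mean of at least 50 required, 6 genes of this list were tested and 1, CBR4, was called, since SLCO2A1 and SLCO2B1 fell under that filter.

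In the list of other prostanoid receptors 4 of 8 genes were tested and 2 fell, with a median of -0.52. Among the 4 was PTGFRN (-0.36, not called), which codes for a regulator of the prostaglandin F receptor and not for a prostanoid receptor. The share called, 50% beside 22.5% of all genes, rests on these 4 genes. PTGIR, the prostacyclin receptor, fell from 97.3 to 24.8 normalized counts (log2 fold change -1.92) and PTGFR, the prostaglandin F receptor, from 240 to 150 (-0.68). With quantile scaling 1 of them was called. The list of the lipoxygenase branch, which uses the same arachidonic acid, also held the epoxide hydrolase genes EPHX1 and EPHX2 and the epoxygenase CYP2J2. Of its 21 genes 10 were tested, with 1 higher and 3 lower. This is 40% called beside 22.5% of all genes, with a median of -0.37. ALOXE3 (-1.04), EPHX2 (-0.62) and ALOX5AP (-1.18, adjusted p = 0.0875 from limma) were lower, and the entry that LTC4S shares with the gene MAML1 was higher (0.84), so that its reads cannot be assigned to LTC4S. Without si-CTRL replicate 1 this list had 1 higher and 1 lower gene.

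Downstream of EP2 and EP4, 31 of 37 genes of Gs and cyclic AMP signalling were tested, with 1 higher, 4 lower and a median of -0.07 that crossed 0 over the alternatives. The share called, 16.1%, was under the 22.5% of all genes. RAPGEF3, the cyclic AMP sensor EPAC1, fell from 365 to 98.3 normalized counts (log2 fold change -1.88), PRKAR1A, a regulatory subunit of protein kinase A, from 18937 to 9031 (-1.05) and the phosphodiesterases PDE4A and PDE7A by 1.26 and 0.67 on the log2 scale. The 1 higher gene, named after its values were seen, was also a phosphodiesterase, PDE7B, which rose from 66.4 to 169 (1.34). Without si-NEK2 replicate 3 this list had 2 higher and 6 lower genes. Of the genes known to respond to cyclic AMP, 11 of 12 were tested, 4 rose and 1 fell, 45.5% beside 22.5% of all genes. Their median of 0.11 crossed 0 over the alternatives. RGS2 rose from 140 to 335 (1.25), CITED2 from 2798 to 4818 (0.79), SIK1 from 1418 to 2164 (0.60) and NR4A3 from 112 to 180 (0.67). The 1 lower gene, AREG, fell from 99.0 to 54.1 (-0.82). Of the genes not called, DUSP1 (-0.51), CREM (-0.45) and FOSB (-0.44) were lower and NR4A1 (0.28) was higher, each without overlap between the groups. AREG and these uncalled genes were named after their values were seen. Without si-NEK2 replicate 1, 2 genes of this list were higher and 1 lower. These genes respond to many signals besides prostaglandin E2.

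Among the listed genes the largest decreases were those of inducers of PTGS2. Of the list of interleukin 1 and TNF inducers, 15 of 17 genes were tested, 8 fell and none rose. The share called was 53.3%, beside 22.5% of all genes, in a list chosen with earlier results of these data known. The median was -0.62, between -0.75 and -0.49 over the alternatives. With upper quartile or quantile scaling, or when replicate 3 of si-CTRL or of si-NEK2 was left out, 1 gene of the list was higher, and the number of lower genes ranged from 6 to 9 over the alternatives. IL1B had 3773, 3031 and 3413 normalized counts in si-CTRL and 272, 300 and 303 in si-NEK2 (log2 fold change -3.54), and IL1A had 1429, 1047 and 1339 against 117, 154 and 127 (-3.25). The receptor IL1R1 fell by 0.62 on the log2 scale and the receptor-associated kinases IRAK1 and IRAK2 by 1.02 and 0.85. PTGS2, by contrast, kept 87.5% of its control level, within the spread of its libraries. Among mRNA-binding regulators of PTGS2, 13 of 14 were tested and 1, HNRNPA2B1, was called (-0.78), 7.69% beside 22.5% of all genes, with a median of 0.03 that crossed 0 over the alternatives and 2 genes called with equal total scaling or when replicate 2 or 3 of si-CTRL or replicate 1 of si-NEK2 was left out. ELAVL1, which stabilises AU-rich mRNAs, had a log2 fold change of 0.03, and ZFP36, which promotes their decay, had means of 387 and 260 (-0.54, adjusted p = 0.0762 from limma) and was under the fold threshold. Among HSP90 and its co-chaperones, the partners of PTGES3, 21 of 21 were tested, with 2 higher and 1 lower and a median of 0.06 that crossed 0 over the alternatives. The share called, 14.3%, was under the 22.5% of all genes. HSP90AA1 rose from 220305 to 335923 (0.61) and SUGT1 by 0.68 on the log2 scale, PPP5C fell by 0.67, and HSP90AB1 had a log2 fold change of 0.22 and was not called. With quantile scaling 1 gene of this list was higher and 1 lower, and with equal total scaling, which shifted all genes down, none was higher and 2 were lower. Without si-CTRL replicate 1 the lower call was lost and 2 genes were higher.

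**Figure D5:**
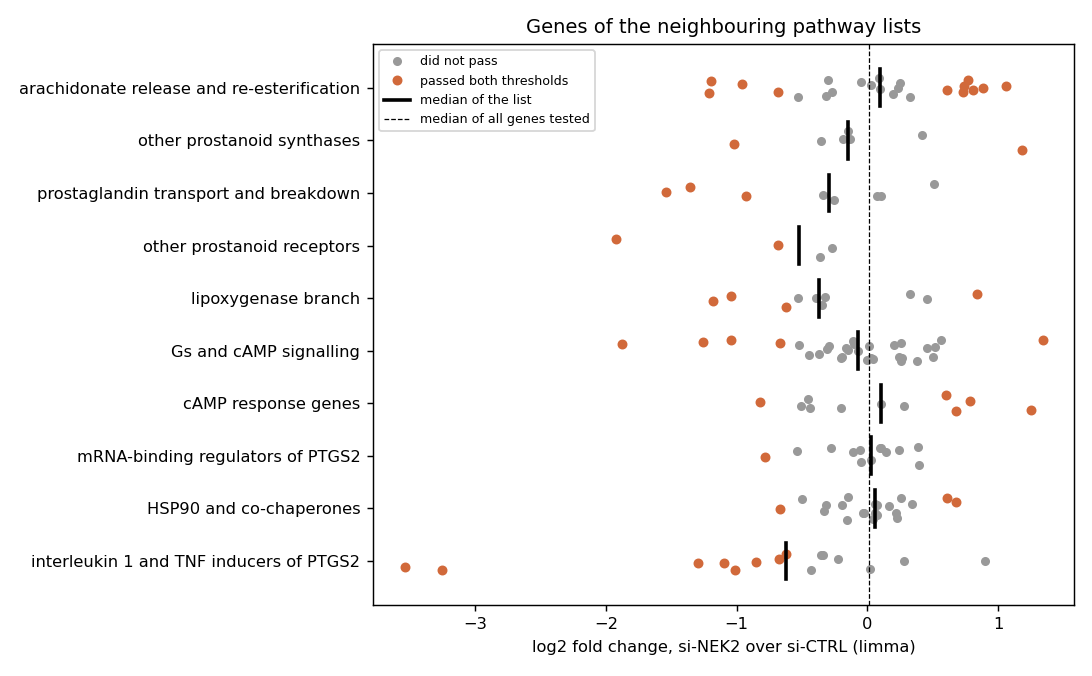
Log2 fold change of si-NEK2 over si-CTRL for each tested gene of the 10 neighbouring lists (points, orange where both thresholds were passed), with the median of each list (black bar) and of all genes tested (dashed line at 0.01). The points of the interleukin 1 and TNF inducers extend furthest to the left, to -3.54 for IL1B. The medians of the lists for cyclic AMP response genes and HSP90 lie near the dashed line, with orange points on both sides of it.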

How the data were processed

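PolyA-enriched RNA of si-CTRL and si-NEK2 MDA-MB-231 cells was sequenced in 3 libraries per group, grouped by the sample records. The authors deposited 1 signal value for each gene in each library, which is its read number after division by the size factor that DESeq2 estimated, with FAST DB annotation and hg19 coordinates, and replicates were kept separate. Per the submitters' processing notes, STAR 2.4.0, SAMtools, Picard, FastQC and DESeq2 were used. The program and strand setting used for counting are not given in the sources used here, although the kit keeps strand, so overlapping genes may share reads. All value columns were matched to samples (0 were not), and 51665 genes carry no symbol.

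In all libraries 100% of values were whole multiples of 1 read (tolerance 0.02 reads), which gave 52625492 to 87454509 reads per library. At 0, a count of up to 3 reads cannot be told from none, that is 2.46 to 3.75 normalized counts, and this floor covers counting error only. The filter was a mean of 10 normalized counts over 6 libraries, and limma 3.58.1 (R 4.3.3, lmFit, eBayes with a trend) was run on log2(value + 1), which understates changes of low genes. The thresholds of the study were kept, a p-value up to 0.05 and a fold change from 1.5, and Benjamini-Hochberg adjustment covered 18717 genes. Ratios were compared with exact permutation tests (scipy 1.17.1). The 9 genes and the lists were chosen with earlier results of these data known. Named were the 9 genes, NEK2, from each list at most the 4 called genes with the smallest p, and genes next to the steps of the pathway with their values whatever they were. A few further list genes were named after their values were seen. Pseudocounts (0.1, 5), filters (none, mean of 50), scaling (upper quartile, equal total, quantile), eBayes with no trend, a replicate block, libraries left out singly, adjusted p-values, a 2-fold threshold, edgeR 4.0.16 and DESeq2 1.42.0 (both on recovered reads) served as alternatives. The fits were tested on simulated data.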

Additional observations from a re-analysis of the deposited data

How the results depend on the processing

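HPGD, PTGES and PLA2G4A kept their direction and their call in all 18 alternatives run on each at the 1.5-fold threshold. Of 144 log2 fold changes over 8 genes and these 18 alternatives, 135 kept their direction and their side of the thresholds. The 2-fold threshold is not among these 18. PTGER2 passed both thresholds with equal total scaling (-0.61), and with single libraries left out it ranged from -0.60 to -0.33, the former without si-CTRL replicate 1. PTGER4 changed sign with upper quartile scaling (0.033) and quantile scaling (0.097), and with single libraries left out ranged from -0.057 to 0.090. PTGES3 changed sign with equal total scaling (-0.020) and quantile scaling (-0.13), and with single libraries left out ranged from -0.042 to 0.19. With equal total scaling the median log2 fold change of the genes tested went from 0.01 to -0.12, a shift against which its values are to be read. The cause of the other changes was not tested. Called genes among the 9 came to 3, to 4 with equal total scaling and without si-CTRL replicate 1, where PTGER2 joined, and to 2 with a fold change of at least 2, where PLA2G4A was lost. In the lists 44 genes were called, and 20 with a fold change of at least 2. Over all genes that threshold gave 1637 calls in place of 4213, edgeR gave 4205 and DESeq2 4039. Of all calls 36.6% were higher, 21.3% with equal total scaling and 45.9% with quantile scaling. The same replicate number did not pair libraries across groups. The deviations of same-numbered libraries correlated at -0.091, 0.047 and -0.15, and no library correlated best with its own number. With the replicate block 3 of the 9 genes and 44 list genes were called and 4084 over all genes. PTGS1 was left out by the filter on the mean, and it was not called when no filter was applied. With 3 libraries per group the precision of all values is limited.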
